A study of Homo sapiens with 16 samples.

Results

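The genes described here are 9 genes of the NRF2 antioxidant response, chosen by name from 56865 annotated genes: the regulator NFE2L2, which encodes NRF2 itself, and HMOX1, NQO1, GCLC, GCLM, TXNRD1, SRXN1, OSGIN1 and TALDO1. Estimated reads of all transcripts of a gene were summed, and all 9 genes passed the filter on low counts. Poly(A) RNA came from 2 lines: NCI-H1299, established from a non-small cell lung cancer and devoid of p53, and a derivative with a stable transgene for p53 Y220C, a destabilised mutant of the tumour suppressor. Cells of either line received 10 µM MS78 or the vehicle DMSO for 24 h, giving 4 groups of 4 libraries, called Null DMSO and Null MS78 for the p53-null line and Y220C DMSO and Y220C MS78 for the other. MS78 was designed to recruit p300/CBP, which are acetyltransferases, to the mutant p53, so the p53-null line is the background for its action without that target. The Y220C line was cultured with G418 at 500 µg/mL and the p53-null line without it, so the transgene, the antibiotic and the line itself cannot be told apart. The labels do not say which promoter drives the transgene, whether the line is 1 clone, or whether replicates were separate cultures. The p-values therefore measure the spread between these libraries, which may be technical.

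NRF2 is a transcription factor that is normally bound by KEAP1 in the cytoplasm and sent for degradation. When KEAP1 is modified by electrophiles or oxidants, or is sequestered by the autophagy receptor p62 (the product of SQSTM1), NRF2 accumulates, pairs with a small MAF protein and binds antioxidant response elements, while BACH1 occupies many of the same elements as a repressor. Its targets make glutathione (GCLC and GCLM), maintain the thioredoxin system (TXNRD1 and SRXN1), reduce quinones (NQO1), degrade heme (HMOX1) and supply NADPH through the pentose phosphate pathway (TALDO1). Because NRF2 is controlled mainly through protein stability, the level of its own mRNA does not report its activity.

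Promoter sequence was available from RefSeq (GRCh38.p14) for 8 of the 9 genes, all but HMOX1, in 10 windows that each ran from 250 bases before an annotated start to 50 bases after it. They are shown because 3 of these genes, GCLM, TXNRD1 and OSGIN1, hold a match to an element that bears on the family: the core of the antioxidant response element, TGACNNNGC, or the AP-1 site, TGANTCA, each searched on both strands. Some letters can match both motifs. The 250 bases before the GCLM and OSGIN1 starts, and 29 bases around the upstream match in each of the 2 TXNRD1 windows, are written from 5′ to 3′ on the gene's strand, with the match in capitals.
GCLM, chr1:93909431-93909680, minus strand: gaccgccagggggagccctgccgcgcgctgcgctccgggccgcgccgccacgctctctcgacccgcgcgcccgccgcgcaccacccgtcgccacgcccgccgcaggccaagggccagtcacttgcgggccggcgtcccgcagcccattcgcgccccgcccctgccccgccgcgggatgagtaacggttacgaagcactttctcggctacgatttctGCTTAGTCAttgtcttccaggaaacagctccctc
OSGIN1, chr16:83952990-83953239, plus strand: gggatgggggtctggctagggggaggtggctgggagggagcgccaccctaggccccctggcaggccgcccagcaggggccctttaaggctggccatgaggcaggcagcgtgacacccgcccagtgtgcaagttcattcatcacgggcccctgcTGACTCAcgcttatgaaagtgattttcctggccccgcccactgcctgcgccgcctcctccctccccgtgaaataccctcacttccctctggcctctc
TXNRD1, chr12:104215670-104215698, plus strand: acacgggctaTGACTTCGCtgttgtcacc
TXNRD1, chr12:104286920-104286948, plus strand: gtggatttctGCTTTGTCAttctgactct
The capitals mark the antioxidant response element core in GCLM and TXNRD1, read on the reverse strand in GCLM and in the second TXNRD1 stretch, and the AP-1 site in OSGIN1. The GCLM match spans bases -34 to -26 from the start, the OSGIN1 match -97 to -91, and the printed TXNRD1 matches -99 to -91 and -102 to -94 of their own windows. The first TXNRD1 window holds another core that is not printed, on the reverse strand at the start itself (-8 to 0). The TXNRD1 transcripts that carried most reads start at 104286682 or later, beyond this first window, which ends at 104215828. The transcripts TXNRD1-205 and TXNRD1-214, which held the largest shares of reads, start at 104286682 and 104286881. The second stretch therefore lies downstream of both of these starts, and upstream only of the RefSeq start of its window. The core occurred upstream of the start in 10.9% of all 35116 promoter windows and the AP-1 site in 6.57%, so neither is rare. The heat shock element GAANNTTC, present upstream in 5.78% of all windows, was found in none of the 10. Matches describe letters in these windows, and elements further from the start were not searched.

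Libraries held 20.3 M to 27.7 M estimated reads. Of 5 epithelial markers KRT8 and KRT18 were present (3748 to 11394 reads), and EPCAM, CDH1 and KRT19 were nearly absent (3 to 55 reads). The mesenchymal marker VIM had 69514 to 147072 reads, and the lung lineage genes NKX2-1, SFTPB and SFTPC had 7 reads or fewer. Reads of the leukocyte gene PTPRC were found in 8 libraries (55 to 99 reads): replicate 1 under DMSO and replicates 2, 3 and 4 under MS78, in both lines. The other 8 libraries had 0 or 1. Over a list of 13 haematopoietic markers the summed level was 85.6 to 120.6 CPM (counts scaled to library size) in Null DMSO, 99.8 to 190.3 in Null MS78, 60.8 to 105.8 in Y220C DMSO and 73.2 to 164.4 in Y220C MS78. CD68 and CORO1A were present in every library. Without these markers, set apart after their values were seen, the other 11 summed to 35.0 to 89.6 CPM in the libraries with PTPRC reads and to 0.0889 to 0.506 in the others. A term for these libraries was past an adjusted p of 0.05 for 154 of 15687 genes and for none of the 9 genes, whose differences were between -0.06 and 0.03 on the log2 scale. In bulk RNA, fewer expressing cells and less RNA per cell cannot be told apart.

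In Y220C cells MS78 raised 8 of the 9 genes and lowered TALDO1, and 8 of the 9 had DMSO and MS78 libraries that did not overlap, as did 41.3% of all genes tested. HMOX1 and OSGIN1 rose most, 5.47-fold and 4.17-fold, followed by SRXN1, TXNRD1 and GCLM at 1.80-fold to 2.35-fold, and GCLC, NQO1 and NFE2L2 at 1.23-fold to 1.31-fold. In p53-null cells 4 of the 9 changed: OSGIN1, HMOX1 and TXNRD1 rose by 1.79-fold, 1.47-fold and 1.21-fold, and GCLM fell. The groups of that line did not overlap for 5 of the 9, against 29.3% of all genes. Here and throughout, "rose", "fell" and "changed" mean an adjusted p under 0.05 in edgeR's quasi-likelihood test with Benjamini-Hochberg adjustment over 15687 genes. Of all genes tested, 48.5% changed with MS78 in Y220C cells (24.9% upward) and 28.1% in p53-null cells (14.8% upward). The median log2 fold change of the 9 genes was 0.85 in Y220C cells against -0.012 for all genes, and 0.088 in p53-null cells against 0.009. Scaling by library totals alone, without TMM normalization, lowered the share of calls that were upward from 51.4% to 34.4% in Y220C cells and from 52.7% to 38.2% in p53-null cells. With that scaling the 9 genes still divided into 8 up and 1 down in Y220C cells, and into 3 up and 3 down in p53-null cells.

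The response differed between the lines for 8 of the 9 genes, all larger in the Y220C line, by the test of line by MS78 interaction. That test called 26.8% of all genes, 14.4% in the upward direction. The difference between the responses was 1.90 (log2, SE 0.070) for HMOX1, 1.22 (SE 0.078) for OSGIN1, 1.12 (SE 0.072) for SRXN1, 0.99 (SE 0.064) for GCLM and 0.87 (SE 0.053) for TXNRD1. It was smaller for NFE2L2 (0.39, SE 0.064), NQO1 (0.34, SE 0.056) and GCLC (0.30, SE 0.068), with adjusted p-values of the 8 genes from 6.02e-14 to 0.00237. For TALDO1 the difference was -0.05 with an approximate 95% interval of -0.17 to 0.08 (adjusted p = 0.588). Within the 8 libraries with PTPRC reads 7 of the 9 interactions passed, GCLC being lost (0.29, adjusted p = 0.104). Within the 8 without them 5 passed, and the lost genes GCLC, NFE2L2 and NQO1 had differences of 0.26, 0.34 and 0.37 (adjusted p = 0.339, 0.165 and 0.0765). The GCLC interaction was also lost with length-scaled TPM (0.43, adjusted p = 0.123). Either set holds a single library in some groups. Library totals alone as the scale lowered the upward share of all interaction calls from 53.75% to 39.42% and left 8 of the 9 genes called upward.

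**Figure D1:**
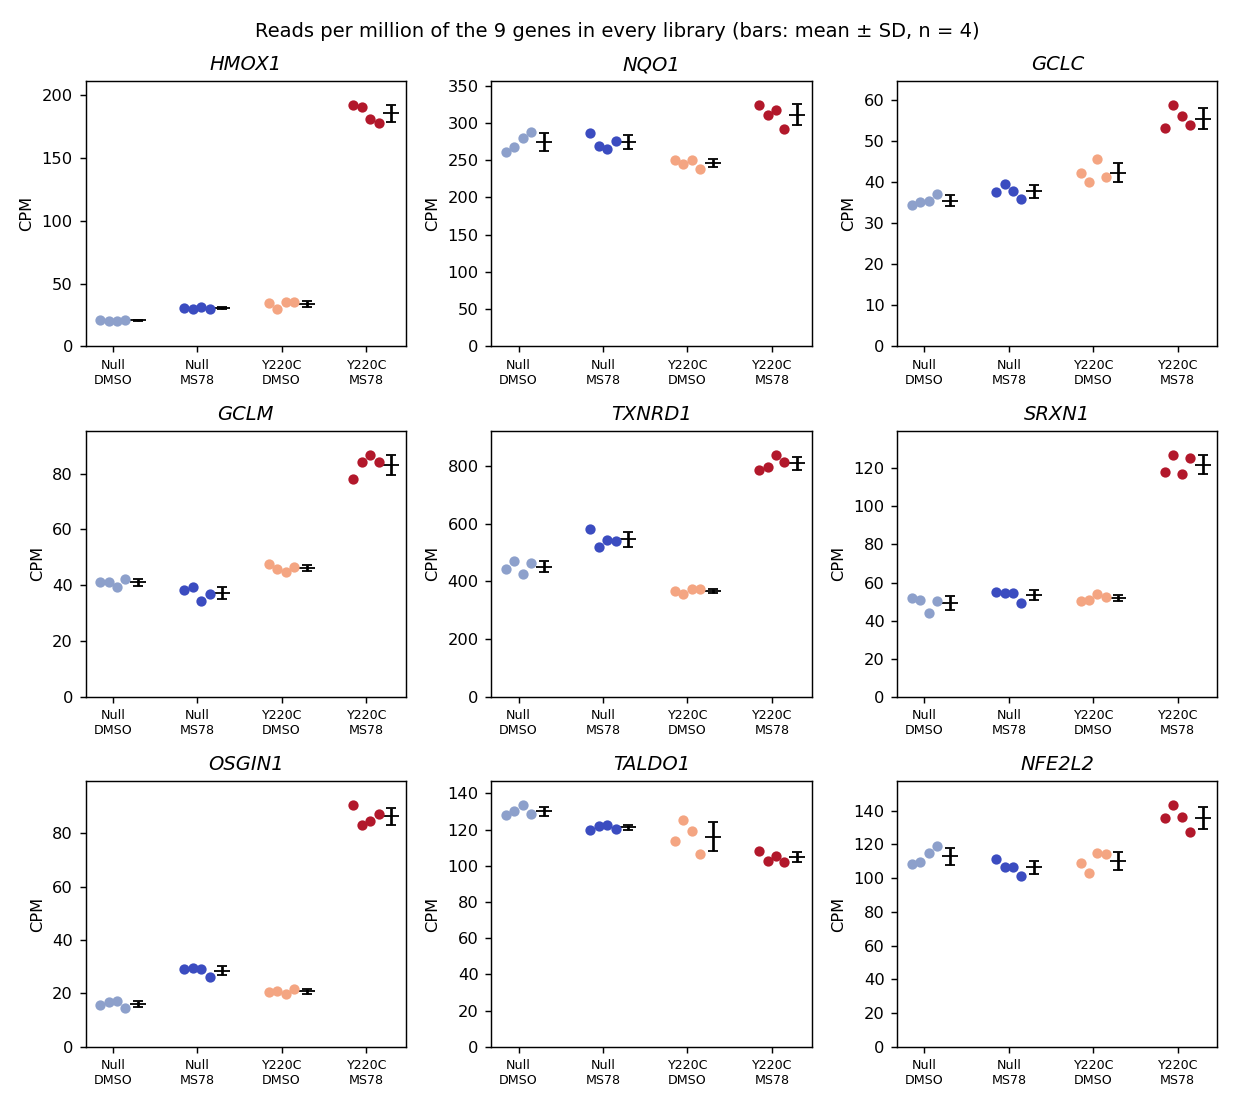
Level of each gene in CPM (counts scaled to library size) in every library, 1 panel per gene with its own vertical axis starting at 0; points are the 4 libraries of a group and the bar beside them is the mean with its SD. Y220C MS78 libraries stand above all others for 8 genes (HMOX1 at 178 to 192 CPM against 20.3 to 35.6 elsewhere), while TALDO1 has its lowest mean there (105 CPM).

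The order of abundance can be read only on a per-length scale, and in TPM (length-scaled transcript abundance) the quinone reductase NQO1 led in all 4 groups with means from 321 to 383. TXNRD1 was next (187 in Null DMSO and 322 in Y220C MS78) and TALDO1 came after it in every group but Y220C MS78, their means in Y220C DMSO being 146 ± 9.38 and 141 ± 7.22 (SD, n = 4), a gap within the spread. NFE2L2 was intermediate at 53.6 to 64.7 TPM. By mean, the least abundant in Null DMSO were GCLC (12.4 to 19.4 over the 4 libraries), OSGIN1 (13.1 to 14.2) and GCLM (11.1 to 12.6). GCLC overlapped both others, and HMOX1 (16.8 to 18.2) lay within the GCLC range. In Y220C MS78 HMOX1 stood at 151 ± 7.03 TPM, above TALDO1 at 124 ± 1.98, NFE2L2 and SRXN1, all of which exceeded it in Null DMSO, and OSGIN1 stood at 75.0 ± 4.90.

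NFE2L2, the gene for NRF2 itself (ENSG00000116044, chromosome 2, 177227595 to 177392697, minus strand, GRCh38), moved little. It had 108, 109, 115 and 119 CPM in Null DMSO and 111, 107, 106 and 101 in Null MS78. The Y220C DMSO libraries had 109, 103, 115 and 114, and the Y220C MS78 libraries 136, 143, 136 and 127. The 3 other groups overlapped one another, and the Y220C MS78 group lay above them all. MS78 raised NFE2L2 1.23-fold in Y220C cells (log2 0.30, SE 0.045, adjusted p = 1.37e-05), and the difference in p53-null cells was -0.09 (approximate 95% interval -0.18 to 0.01, adjusted p = 0.173). The upstream end of the annotated NFE2L2 gene meets AGPS on the opposite strand (1918 to 2666 reads), but the NFE2L2 transcripts that carried most reads reach no further than 177265131, short of AGPS, which begins at 177392644.

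HMOX1, heme oxygenase 1, opens the heme ring to release iron, carbon monoxide and biliverdin, and is both an NRF2 target and a BACH1-repressed gene (ENSG00000100292, chromosome 22, 35380361 to 35394214, plus strand). It was expressed at 20.9, 20.3, 20.7 and 21.0 CPM in Null DMSO and at 30.4, 29.6, 31.5 and 30.0 in Null MS78. In the Y220C line DMSO libraries had 34.5, 30.2, 35.2 and 35.6 CPM and MS78 libraries 192, 191, 181 and 178. Treated and vehicle libraries did not overlap in either line, and the lowest treated Y220C library, at 178 CPM, stood far above the highest vehicle library, at 35.6. The rise was 5.47-fold in Y220C cells (log2 2.45, SE 0.047, adjusted p = 7.51e-20), ranking 123rd by size of change among 15687 genes. It was 1.47-fold in p53-null cells (log2 0.55, SE 0.052, adjusted p = 5.52e-08). Vehicle-treated Y220C cells already had 1.64-fold more HMOX1 than p53-null cells (adjusted p = 7.38e-10), so the Y220C MS78 level exceeded Null MS78 by 6.11-fold (adjusted p = 3.75e-20). These comparisons share groups and are not independent of each other.

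NQO1, a quinone reductase widely used as a marker of NRF2 activity, rose modestly in Y220C cells (ENSG00000181019, chromosome 16, 69706996 to 69726951, minus strand). Null DMSO libraries ranged from 260.4 to 287.5 CPM and Null MS78 libraries from 265.2 to 286.6. The Y220C DMSO libraries had 250.4, 245, 250.5 and 238 CPM and the Y220C MS78 libraries 324, 311, 318 and 292. The p53-null groups lay on top of each other, whereas the Y220C groups were separate. The rise was 1.26-fold in Y220C cells (log2 0.34, SE 0.040, adjusted p = 4.89e-07), and in p53-null cells the log2 difference was 0.0019 with an approximate 95% interval of -0.08 to 0.09 (adjusted p = 0.981). Under DMSO NQO1 was lower in the Y220C line than in the p53-null line, by 0.15 on the log2 scale (adjusted p = 0.00274).

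Glutathione synthesis begins with glutamate-cysteine ligase, whose catalytic subunit is GCLC and whose modifier subunit, which raises the enzyme's efficiency, is GCLM. The subunits differed in size of response. GCLC (ENSG00000001084, chromosome 6, 53497341 to 53616970, minus strand) had 42.2, 40.1, 45.5 and 41.1 CPM in Y220C DMSO and 52.98, 58.65, 56.11 and 53.72 in Y220C MS78, a 1.31-fold rise (log2 0.39, SE 0.048, adjusted p = 9.03e-07). Its p53-null libraries ranged from 34.3 to 37.2 CPM in DMSO and from 35.8 to 39.4 in MS78, and overlapped (log2 0.09, approximate 95% interval -0.02 to 0.19, adjusted p = 0.201). The GCLC calls depended on how reads were scaled for transcript length: with counts derived from length-scaled TPM its rise in Y220C cells was 0.27 with an adjusted p of 0.109, and its p53-null difference turned to -0.16.

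GCLM (ENSG00000023909, chromosome 1, 93885205 to 93909456, minus strand), whose promoter is printed above, had 41.1, 41.2, 39.3 and 42.2 CPM in Null DMSO and 38.4, 39.2, 34.4 and 37.0 in Null MS78. The Y220C line had 47.5, 45.9, 44.6 and 46.6 CPM under DMSO and 78.2, 84.1, 86.6 and 84.0 under MS78. The groups were separate in both lines, in p53-null cells by the narrow gap between 39.2 and 39.3, and their order was opposite. GCLM rose 1.80-fold in Y220C cells (log2 0.85, SE 0.044, adjusted p = 2.24e-12) and fell by 0.14 on the log2 scale in p53-null cells (SE 0.046, adjusted p = 0.0331). The fall was lost when any of 5 libraries was left out (Null DMSO replicates 1, 2 and 4 and Null MS78 replicates 3 and 4), with log2 differences from -0.14 to -0.10 and adjusted p-values from 0.0615 to 0.138. It was also lost without the low-count filter (-0.14, adjusted p = 0.0601), with length-scaled TPM (-0.053, 0.608), and within the libraries with PTPRC reads (-0.17, 0.179) and without them (-0.096, 0.603).

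TXNRD1, the cytosolic thioredoxin reductase, and SRXN1, sulfiredoxin, which repairs over-oxidised peroxiredoxins, more than doubled in Y220C cells. TXNRD1 (ENSG00000198431, chromosome 12, 104215779 to 104350305, plus strand) had 444, 469.6, 426 and 462 CPM in Null DMSO and 579.9, 517, 544 and 541 in Null MS78. Its Y220C libraries had 366, 356, 372 and 373 CPM under DMSO and 788, 797, 837 and 816 under MS78. Both lines separated by treatment, and the vehicle level was lower in the Y220C line (log2 -0.30, adjusted p = 1.78e-06). The rise was 2.21-fold in Y220C cells (log2 1.14, SE 0.038, adjusted p = 1.44e-15) and 1.21-fold in p53-null cells (log2 0.28, SE 0.038, adjusted p = 9.17e-06). EID3, a gene inside TXNRD1 on the same strand, had 41 to 109 reads against at least 7382 for TXNRD1.

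SRXN1 (ENSG00000271303, chromosome 20, 646615 to 653370, minus strand) had 51.9, 51.0, 43.9 and 50.5 CPM in Null DMSO and 55.1, 54.7, 54.4 and 49.5 in Null MS78. Y220C libraries had 50.4, 51.0, 53.9 and 52.3 CPM under DMSO and 118, 127, 117 and 125 under MS78. The 3 groups outside Y220C MS78 overlapped. SRXN1 rose 2.35-fold in Y220C cells (log2 1.23, SE 0.051, adjusted p = 4.03e-14). In p53-null cells the log2 difference was 0.12 (SE 0.052, adjusted p = 0.106), and the adjusted p was 0.0452 without Null MS78 replicate 4, the lowest library of its group.

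OSGIN1, an oxidative stress-induced growth inhibitor that has been described as a p53 target as well as an NRF2 target (ENSG00000140961, chromosome 16, 83948282 to 83966332, plus strand), had the largest p53-null response of the 9 genes. Its levels were 15.6, 16.6, 17.0 and 14.5 CPM in Null DMSO and 29.2, 29.4, 29.2 and 26.0 in Null MS78. In the Y220C line they were 20.5, 20.8, 19.7 and 21.8 CPM under DMSO and 90.5, 83.2, 84.6 and 87.2 under MS78. No 2 groups overlapped. The rise was 1.79-fold in p53-null cells (log2 0.84, SE 0.057, adjusted p = 3.17e-10) and 4.17-fold in Y220C cells (log2 2.06, SE 0.052, adjusted p = 1.37e-17). Its printed promoter carries the AP-1 match and no antioxidant response element core.

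TALDO1, the transaldolase of the non-oxidative pentose phosphate branch (ENSG00000177156, chromosome 11, 747329 to 765024, plus strand), did not move with the other 8 genes. Null DMSO libraries had 128 to 133 CPM and Null MS78 libraries 119.7 to 122.5. Y220C DMSO libraries had 114, 125, 119 and 107 CPM and Y220C MS78 libraries 108, 103, 105 and 102, so one vehicle library lay within the treated range. TALDO1 fell by 0.15 on the log2 scale with MS78 in Y220C cells (SE 0.041, adjusted p = 0.00509). The difference of -0.10 in p53-null cells missed the threshold (adjusted p = 0.0683). The Y220C call was lost in both sets of libraries split by PTPRC reads (adjusted p = 0.0762 with them and 0.438 without).

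**Figure D2:**
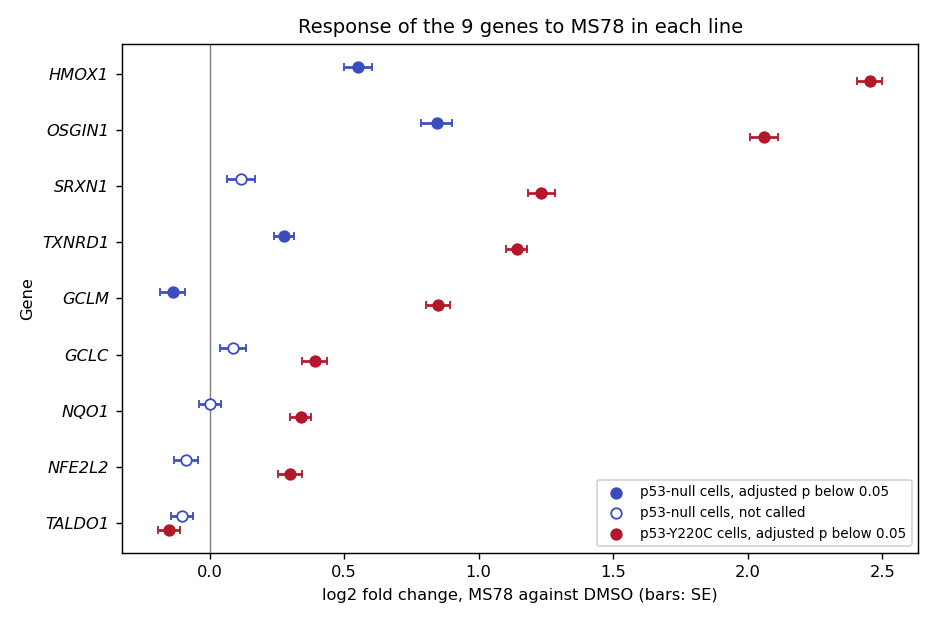
Log2 fold change of MS78 against DMSO for the 9 genes in p53-null and p53-Y220C cells, with bars for the approximate SE; 0 is no difference. In Y220C cells 8 genes lie above 0, from 0.30 for NFE2L2 to 2.45 for HMOX1, and in p53-null cells the genes that rose are OSGIN1 (0.84), HMOX1 (0.55) and TXNRD1 (0.28).

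Before any MS78 the lines differed in 7 of the 9 genes, against 50.2% of all genes tested (24.7% higher and 25.5% lower in the Y220C line). HMOX1, OSGIN1, GCLC and GCLM were higher in Y220C DMSO than in Null DMSO, by 0.71, 0.38, 0.25 and 0.17 on the log2 scale, and TXNRD1, TALDO1 and NQO1 were lower, by -0.30, -0.16 and -0.15. The median of all 9 was 0.073, beside 0.003 for all genes, and the groups did not overlap for 7 of the 9, against 43.6% of all genes. SRXN1 (0.07, approximate 95% interval -0.04 to 0.19) and NFE2L2 (-0.03, -0.13 to 0.06) did not pass. Under MS78 all 9 differed, 8 higher in the Y220C line and TALDO1 lower, against 61.8% of all genes (30.7% higher and 31.2% lower), with a median of 0.569 beside -0.01, and the groups did not overlap for any of the 9, against 56.4% of all genes. NQO1 and TXNRD1 thus changed their order between the lines: TXNRD1 was lower by 0.30 under DMSO (fold 0.814) and higher 1.48-fold under MS78, and NQO1 passed from 0.899-fold to 1.14-fold. For NQO1 this order was not stable: the MS78 difference lost its call with length-scaled TPM (log2 0.087, adjusted p = 0.0666) and within libraries without PTPRC reads (0.18, adjusted p = 0.131). The DMSO difference lost its call within libraries with PTPRC reads (-0.068, adjusted p = 0.52). These 2 comparisons of the lines share no libraries with each other but share them with the MS78 comparisons.

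The wider NRF2 list of 69 other genes, chosen with earlier results of these data known, moved in both directions. Of 64 that could be tested, 22 rose and 18 fell with MS78 in Y220C cells, and 20 rose and 10 fell in p53-null cells, with medians of 0.041 and 0.062. Over all genes tested 24.9% rose and 23.6% fell in Y220C cells, and 14.8% rose and 13.3% fell in p53-null cells. In Y220C cells 8 of 11 regulators rose and 1 fell. These regulators pool small MAF partners of NRF2 with its repressor BACH1 and its sensor KEAP1, so their count has no single meaning for NRF2 activity. In the same cells 4 of 8 NADPH-supplying enzymes rose and 2 fell. Of 16 glutathione genes 4 rose and 7 fell, and of 13 thioredoxin and peroxiredoxin genes 1 rose and 4 fell. Heme and iron genes divided into 3 up and 3 down of 8, and quinone and carbonyl detoxification genes into 2 up and 1 down of 8. The 5 genes that could not be tested, AKR1B10, AKR1C1, AKR1C3, ALDH3A1 and GPX2, had at most 9 reads in any library. AKR1C1 and AKR1C3 belong to a family of similar genes, among which reads can be divided.

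Among regulators, MAFF, a small MAF partner, rose by 2.09 (log2, SE 0.090, adjusted p = 8.42e-14) in Y220C cells, from 6.43 to 27.5 CPM, and by 1.00 (SE 0.095) in p53-null cells, from 5.47 to 10.9. SQSTM1, which encodes the KEAP1-sequestering receptor p62, rose by 1.13 (SE 0.031, adjusted p = 5.29e-17) in Y220C cells and by 0.62 in p53-null cells, and its group means ran from 567 CPM in Null DMSO through 873 and 1378 to 3020 in Y220C MS78. The repressor BACH1 and the sensor KEAP1 were added here after their values had been seen. BACH1 rose from 67.2 to 105.9 CPM in Y220C cells (log2 0.65, adjusted p = 2.49e-08) and from 62.5 to 70.7 in p53-null cells (log2 0.18, adjusted p = 0.0375), and the KEAP1 difference in Y220C cells was -0.11 (adjusted p = 0.0665). KEAP1 fell by 0.18 on the log2 scale in p53-null cells (adjusted p = 0.00736).

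In the glutathione group SLC7A11, the cystine importer that feeds glutathione synthesis, had the largest fall in p53-null cells. It fell there by 1.14 on the log2 scale (SE 0.067, adjusted p = 3.50e-11), from 113 to 51.2 CPM, while in Y220C cells it had 84.0 ± 7.67 CPM under DMSO and 93.8 ± 4.48 under MS78 (SD, n = 4; log2 0.16, adjusted p = 0.0526). The difference between these responses was 1.30 (SE 0.094, adjusted p = 2.98e-09). CHAC1, which degrades glutathione, fell in both lines, by 1.08 in p53-null and by 0.56 in Y220C cells. ABCC3, an exporter of conjugates, fell by 0.55 in Y220C cells (adjusted p = 0.000554) and by 0.48 in p53-null cells (adjusted p = 0.000923).

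Several NADPH-supplying enzymes rose while TALDO1 did not. ME1, malic enzyme, rose by 1.09 in Y220C cells (SE 0.064, adjusted p = 1.29e-11) and by 0.54 in p53-null cells. IDH1, isocitrate dehydrogenase, rose by 0.76 in Y220C and by 0.70 in p53-null cells. The pentose phosphate enzyme PGD rose by 0.63 in Y220C and by 0.67 in p53-null cells. FTL, the ferritin light chain, rose by 0.51 in Y220C and by 0.36 in p53-null cells, with the reservation that ferritin has many processed copies in the genome. SLC40A1, the iron exporter ferroportin, fell by 0.40 in Y220C cells and did not pass in p53-null cells (0.05). SLC48A1, a heme transporter, fell by 0.27 in p53-null and by 0.26 in Y220C cells. PIR and UGDH rose by 0.59 and 0.57 in Y220C cells and by 0.16 and 0.10 in p53-null cells. Changes among peroxide-handling enzymes were small: PRDX1 rose by 0.21 in Y220C cells, and PRDX5 and CAT rose by 0.28 and 0.17 in p53-null cells. PRDX1 in p53-null cells (0.02) and PRDX5 and CAT in Y220C cells (0.05 and -0.13) did not pass. SOD2 fell by 0.20 in Y220C and by 0.14 in p53-null cells.

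**Figure D3:**
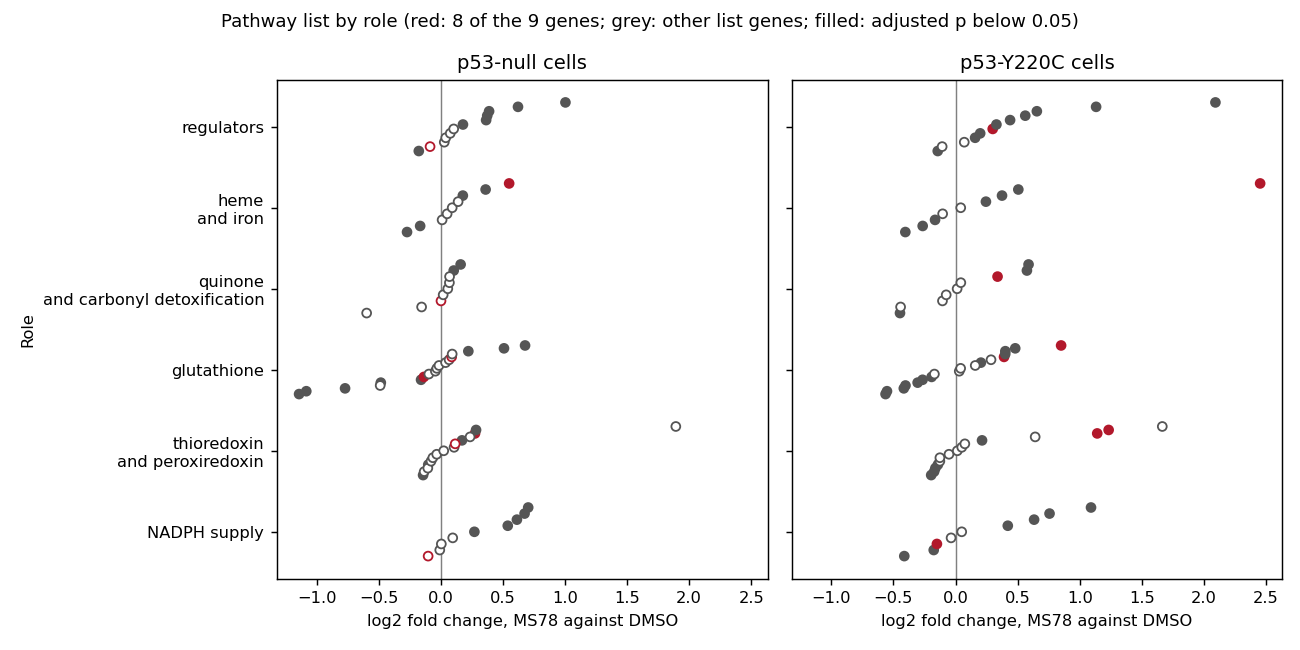
Log2 fold change of MS78 against DMSO for each tested gene of the wider NRF2 list, grouped by role, in p53-null and p53-Y220C cells, with the genes described here in red, the others in grey, and filled points for an adjusted p under 0.05; OSGIN1, a growth inhibitor, is not drawn. Without the red genes, regulators and NADPH-supplying enzymes have medians of 0.329 and 0.235 in Y220C cells. The regulators pool partners of NRF2 with the repressor BACH1 and the sensor KEAP1. The glutathione and thioredoxin groups spread to both sides.

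The share of a gene's reads held by each transcript rests on how the quantifier divided reads among similar sequences, and shares were not tested. HMOX1-201 held 97% to 99.8% of HMOX1 reads on average and SRXN1-201 held 100% of SRXN1 reads in every group. In GCLM the minor transcript GCLM-204, which starts slightly upstream of GCLM-201, took 11.1% ± 4.34 of reads in Null DMSO, 11.8% ± 1.51 in Null MS78, 13.5% ± 1.87 in Y220C DMSO and 20.7% ± 2.23 in Y220C MS78 (SD, n = 4). All 4 Y220C MS78 libraries (19.1% to 23.9%) lay above the others, whose highest was 15.3%. TXNRD1-205 and TXNRD1-214, whose first exons hold the second TXNRD1 stretch printed above, changed places in Y220C cells. There TXNRD1-214 had 38.5% ± 3.76 of reads under DMSO and 47.4% ± 1.63 under MS78, and TXNRD1-205 47.2% ± 3.11 and 35.5% ± 2.59. In p53-null cells the shift had the same direction and was smaller. TXNRD1-214 had 40.6% ± 1.65 and 42.7% ± 1.20 there, and TXNRD1-205 44.2% ± 2.12 and 42.1% ± 1.12, with overlapping ranges under MS78. NFE2L2-201 had 57.8% ± 5.30 of NFE2L2 reads in Null DMSO and 66.4% ± 4.53 in Y220C MS78, with overlapping libraries.

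**Figure D4:**
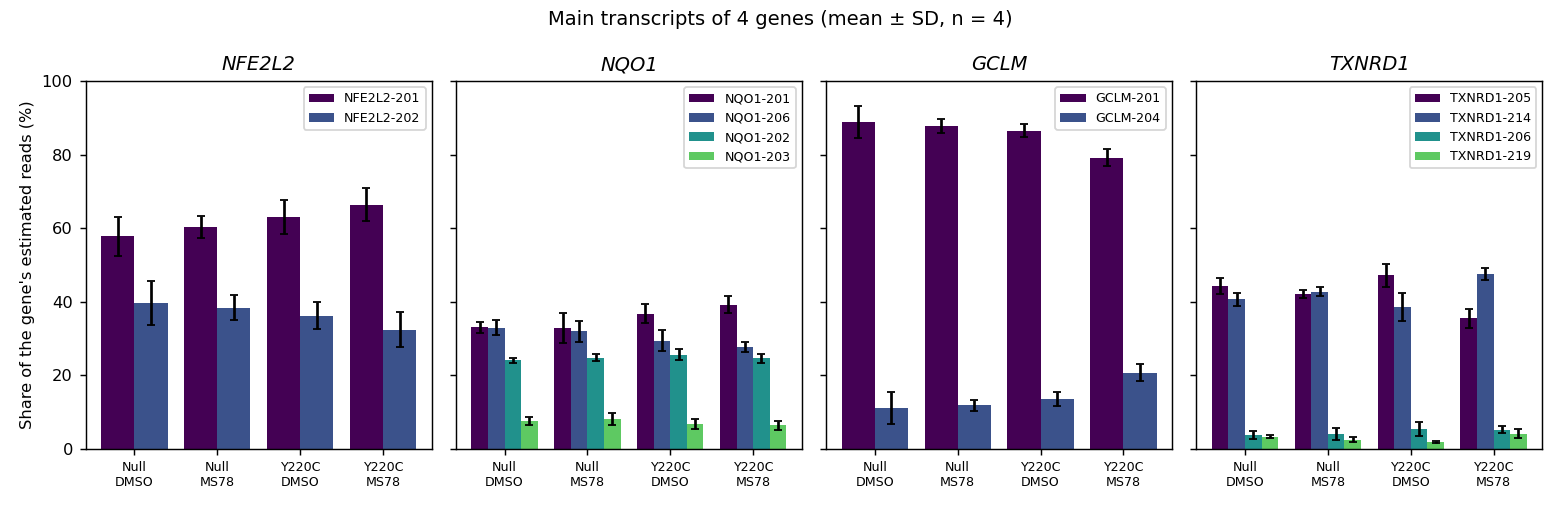
Share of a gene's estimated reads (percent) held by its main transcripts in the 4 groups, for NFE2L2, NQO1, GCLM and TXNRD1; bars are means over 4 libraries with the SD, 1 colour per transcript. GCLM-204 is highest in Y220C MS78 (20.7%), where TXNRD1-214 (47.4%) exceeds TXNRD1-205 (35.5%).

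Genes whose pattern over the 16 libraries was most like that of HMOX1, NQO1 and GCLM were ranked by Pearson correlation of log2 CPM among 10603 other protein-coding genes, as a description without a test, since libraries of 1 group share their treatment. For HMOX1 they were EGR1 (r = 0.995), an immediate early transcription factor, FOSB (0.994), an AP-1 subunit, and UGCG (0.993), which makes glucosylceramide. EGR1 averaged 13.0 CPM in Null DMSO and 27.0 in Null MS78, and 27.3 and 338 in the Y220C line under DMSO and MS78. For GCLM they were the chaperones HSPH1 and HSPD1 (both 0.99) and SNAPC1 (0.989). For NQO1 they were the secretory pathway genes TMED5 (0.945), RPN1 (0.94) and SEC13 (0.938). None of these 9 nearest genes was on the wider NRF2 list.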

How the data were processed

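RNA of 16 libraries was quantified per transcript by the authors. The deposited tables hold estimated counts of reads, which need not be whole and are not normalized, per the file headers. They also hold TPM values, scaled by the authors to effective transcript length and a fixed library sum, and transcript lengths, per the file headers. The genome build was hg38 and quality was read with FastQC 0.11.8, per the submitters' processing notes. For the quantifier's version, annotation and use of strand, the sources used here give nothing.

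Estimated counts of 193348 of 197653 transcripts (97.82%) matched GENCODE 29 without version, were summed per gene and rounded. Unmatched transcripts held 0.278% to 0.325% of reads. Gene tests used edgeR 4.0.16 (R 4.3.3): filterByExpr, TMM, 1 quasi-likelihood fit of 16 libraries with 12 residual degrees of freedom, and Benjamini-Hochberg adjustment over the 15687 genes tested within each comparison (threshold 0.05). SE is approximate (size of the log2 difference over the root of its F), and 95% intervals are approximate. CPM use TMM-scaled totals. Intervals and SDs do not cover bias in read assignment.

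Members and lists were chosen with earlier results of these data known. All 9 genes are named whatever their values. From the wider list, the rule names the 2 genes with the largest change per role and MS78 comparison past the threshold with a mean of at least 1 CPM, and the 3 nearest genes of at least 5 CPM for HMOX1, NQO1 and GCLM. The test was checked on simulated counts for the p53-null comparison (15458 genes). There 79.6% of 93 genes changed by 1 on the log2 scale and 68.3% of 104 changed by 0.5 were called. No other simulated gene differed between groups, and 3 of those were called. In the data 28.1% of genes were called in this comparison, so the recovery may differ. Alternatives were other scalings, filters, DESeq2 1.42.0, length-scaled TPM, a replicate block, the compared groups alone, libraries with or without PTPRC reads, and leaving out each library. Replicate numbers are those of the labels. Between the lines, same-numbered libraries deviated together (correlation above 0.1) in 4 of 4 pairs under MS78 (0.15 to 0.53) and in 3 of 4 under DMSO. The same number was the best match in 3 of 4 pairs under MS78 and in 2 of 4 under DMSO. PTPRC reads fell on the same replicate numbers in both lines. A block changed no call of the 9 genes in these comparisons. A check of the labels on 1 gene is not reported here.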

Additional observations from a re-analysis of the deposited data

Results flagged for a closer look

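In 3 of 36 combinations of gene and group 1 library lay apart from the other 3; chance gives about 1 in 20. SRXN1 had 43.9 CPM in Null DMSO replicate 3 (ratio of its gap to the range of the group, 0.83) against 50.5 to 51.9 in the others. SRXN1 had 49.5 CPM in Null MS78 replicate 4 (0.875) against 54.4 to 55.1. OSGIN1 had 26.0 CPM in that same library (0.935) against 29.2 to 29.4.

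The response to MS78 differed between the lines, by the interaction test, for HMOX1 (1.90 on the log2 scale), OSGIN1 (1.22), SRXN1 (1.12), GCLM (0.99), TXNRD1 (0.87), NFE2L2 (0.39), NQO1 (0.34) and GCLC (0.30).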

How the results depend on the processing

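Of 945 recomputed values of single genes, 903 kept their direction and side of the threshold, 25 lost a call, 5 gained one and 12 changed sign. The number of the 9 genes called stayed within 1.5 times the reported number in all but 1 setting: the interaction had 5 instead of 8 within libraries without PTPRC reads. Leaving out 1 library gave 3 to 4 calls in p53-null cells, 9 in Y220C cells, 8 for the interaction, and 7 and 9 for the lines under DMSO and MS78. DESeq2 gave 4, 9, 8, 7 and 9, as reported, and so did the fit with a replicate block. Same-numbered libraries did not deviate together between DMSO and MS78, where 0 of 16 pairs had a correlation above 0.1. The pairs of replicate 1 had -0.50 to -0.46. PTPRC reads were in replicate 1 under DMSO and in replicates 2, 3 and 4 under MS78. With reads placed so, these correlations cannot decide whether the numbers pair the MS78 comparisons. With a block within each treatment, chosen after seeing the data, the interaction had 8 calls and the lines differed in 7 and 9 genes, as reported. In p53-null cells library totals alone gave 6 calls and length-scaled TPM 3.

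No value that changed sign had passed the threshold. NQO1 in p53-null cells was -0.042 with library totals alone, -0.0032 without the filter, -0.0039 with a 1 CPM filter, -0.0037 with length-scaled TPM, -0.0026 with the compared groups alone, and -0.020 to 0.022 when 1 library was left out. GCLC in p53-null cells was -0.16 with length-scaled TPM. SRXN1 between the lines under DMSO was -0.054 within libraries with PTPRC reads, and the TALDO1 interaction was 0.020 within those without. The cause was not tested. Each of these sets has 1 library in some groups, which is assumed to vary like the others. The 9 genes had at least 363 reads in every library.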
